A study of Homo sapiens with 4 samples.

Results

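The 9 class I antigen presentation genes described here are HLA-B, HLA-C, HLA-E, HLA-F, B2M, TAP1, TAP2, TAPBP and NLRC5, taken by name from 19775 genes with a probe set on the array. Every probe set whose annotation lists exactly 1 of these symbols was a member, which gave 25 probe sets of 54675, and 0 further probe sets listed a member beside another symbol. One group of cells had received 0.5 mM AICAR in fresh medium for 1 day, and the other received vehicle over the same time, with 2 Affymetrix U133 Plus 2.0 arrays in each group. All were BT474 cells, an established ERBB2-amplified breast cancer line grown in DMEM, and AICAR is a nucleoside that cells phosphorylate to an AMP mimic, which activates the energy sensor kinase AMPK. The labels state no genetic change in either group. Nothing in them says that the duplicate arrays hold separate cultures, and the p-values then reflect array-to-array spread alone, which may be technical.

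Class I molecules show peptides from inside the cell to CD8 T cells and NK cells. A polymorphic heavy chain (HLA-B or HLA-C) or a less variable one (HLA-E, HLA-F) pairs with the light chain β2-microglobulin, encoded by B2M. Peptides cut by the proteasome reach the endoplasmic reticulum through the transporter TAP1-TAP2, and tapasin (TAPBP) holds the empty heavy chain beside it during loading. NLRC5 is the transactivator of these genes. It does not bind DNA by itself but is held at the conserved S, X and Y boxes of their promoters by the RFX complex (RFX5, RFXAP and RFXANK), CREB/ATF factors and NF-Y. Breast epithelial cells express class I at a basal level that interferons raise through interferon-response elements.

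The start-site windows of 7 members were found in the RefSeq promoter table (GRCh38.p14). They are shown because NLRC5, RFX and interferon factors are known to act on this gene family through promoter elements. HLA-E and NLRC5 had no entry. Each window runs 5′ to 3′ on the gene's own strand, from 250 bases before the start to 50 after it. Capitals mark 4 searched motifs on either strand, which may overlap: GAAA followed after any 2 bases by a second GAAA, the shorter form GAANNGAAA (both of the interferon-response type), CCAAT (the NF-Y letters of the Y box) and TGACG (a CREB/ATF half-site). No S box or RFX motif was searched, and not every window held all 4 motifs. The full windows are those of the light chain and of 3 heavy chains.
B2M (chr15:44711267-44711566, plus strand): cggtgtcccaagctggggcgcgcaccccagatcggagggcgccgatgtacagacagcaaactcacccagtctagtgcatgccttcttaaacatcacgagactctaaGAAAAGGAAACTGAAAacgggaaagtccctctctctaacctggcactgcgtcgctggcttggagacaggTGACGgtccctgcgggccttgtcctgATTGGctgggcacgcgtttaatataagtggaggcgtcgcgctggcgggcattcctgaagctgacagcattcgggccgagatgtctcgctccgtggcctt
HLA-B (chr6:31357130-31357429, minus strand): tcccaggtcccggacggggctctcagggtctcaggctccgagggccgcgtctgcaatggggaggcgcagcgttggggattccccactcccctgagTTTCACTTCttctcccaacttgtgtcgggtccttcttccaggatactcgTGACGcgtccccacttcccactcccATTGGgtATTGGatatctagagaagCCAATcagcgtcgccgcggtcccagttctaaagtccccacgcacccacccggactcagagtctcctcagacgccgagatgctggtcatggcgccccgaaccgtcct
HLA-C (chr6:31272043-31272342, minus strand): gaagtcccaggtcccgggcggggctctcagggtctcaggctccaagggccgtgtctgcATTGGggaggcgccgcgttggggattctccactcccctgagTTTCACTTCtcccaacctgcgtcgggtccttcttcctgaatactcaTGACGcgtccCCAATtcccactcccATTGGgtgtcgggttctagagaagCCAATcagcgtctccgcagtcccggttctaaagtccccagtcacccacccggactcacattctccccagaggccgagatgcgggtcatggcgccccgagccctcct
HLA-F (chr6:29723184-29723483, plus strand): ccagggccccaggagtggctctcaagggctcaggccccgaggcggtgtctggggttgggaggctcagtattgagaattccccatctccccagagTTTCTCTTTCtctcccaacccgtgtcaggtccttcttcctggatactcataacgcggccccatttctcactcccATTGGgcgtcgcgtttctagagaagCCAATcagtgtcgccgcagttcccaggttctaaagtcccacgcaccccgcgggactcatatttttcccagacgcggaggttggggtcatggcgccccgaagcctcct
For the 3 loading genes, 60 bases around the interferon-response letters are given.
TAP1 (chr6:32853801-32853860, minus strand): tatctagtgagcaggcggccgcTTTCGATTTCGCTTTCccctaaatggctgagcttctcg
TAP2 (chr6:32838763-32838822, minus strand): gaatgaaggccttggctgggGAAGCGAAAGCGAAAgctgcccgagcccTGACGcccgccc
TAPBP (chr6:33314061-33314120, minus strand): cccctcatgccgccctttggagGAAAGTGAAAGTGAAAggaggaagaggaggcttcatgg

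Letters of the interferon-response type stood in 7 of 7 member windows, against 10.6% of 35116 windows in the table for either form. The longer form alone stood in 5 of 7 member windows, against 3.57% of all windows, and the shorter form in 3 of 7, against 7.66%. CCAAT was found in 5 of 7 (34.6% of all windows) and TGACG in 4 of 7 (24.6%). In HLA-B the interferon-response letters began at -155, TGACG at -106 and a CCAAT match at -81, counted from the start. In HLA-C they began at -151, -105 and -80, and in B2M the last of each lay at -138, -75 and -49. HLA-F had the interferon-response letters at -156 and a CCAAT match at -82, with no TGACG in its window. The motifs were chosen because they are known from these genes, so the shares describe the windows and are no test, and a match of letters does not show that a factor binds there.

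The AICAR and vehicle arrays had closely similar distributions, with medians over all probe sets of 6.37 to 6.40 (log2), and replicates correlated at 0.997 in both groups across probe sets, which are not independent replicates. The line showed its luminal epithelial markers, with ERBB2 at 13.36 in both AICAR arrays and 13.30 and 13.32 in the vehicle arrays, and 8 of 9 such markers did not pass the test; ESR1 fell by 0.31 (log2, limma adjusted p = 0.0411). Of 10 blood cell markers 8 had a probe set and 4 were above the bound for dim genes. Those 4 differed by 0.03 to 0.21 (log2) with 0 past the threshold and 1 higher at an unadjusted limma p under 0.05, and the leukocyte marker PTPRC lay below the bound at 4.67 and 4.58 in the AICAR arrays, against 4.56 and 4.55 in the vehicle arrays. LYZ, the lysozyme gene of myeloid and secretory cells, was also below the bound and is named after its values were seen. It was at 5.66 and 5.71 with AICAR, against 5.31 and 5.26 with vehicle, and passed when the filter was dropped (difference 0.40, adjusted p = 0.0472). Of the 8 blood markers 7 had a positive difference, and their summed level on the linear scale was 538.2 and 538.3 with AICAR, against 486.6 and 499.8 with vehicle. Of 6 stromal and endothelial markers 4 were tested and COL1A1 fell by 0.63 (adjusted p = 0.0209). ESR1 did not pass with any 1 array left out or without the filter, and COL1A1 did not pass without either vehicle array. The part of these markers in the class I values was not tested. The sources used here give no scan date or other batch, and in bulk RNA a change in the share of expressing cells cannot be told apart from a change in RNA per cell.

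Of the 9 class I genes, 2 rose with AICAR and 0 fell (limma, Benjamini-Hochberg adjusted p under 0.05 over 13842 genes): HLA-E, 1.30-fold, and the transactivator NLRC5, 1.34-fold. NLRC5 was above the bound for dim genes only through its AICAR arrays, since both vehicle arrays lay below it, and neither gene passed without the filter (adjusted p = 0.0590 for HLA-E and 0.0587 for NLRC5). The classical heavy chain genes HLA-B and HLA-C differed by 0.05 and 0.09 (log2) and did not pass. B2M, TAP1, TAP2 and HLA-F had positive differences of 0.14 to 0.22 that did not pass, and TAPBP had a negative one of -0.18. Over all genes tested, 9.82% were called, 4.63% as higher and 5.19% as lower, so that 2 of 9 is a small count to set beside that share. The median difference was 0.17 (log2) over the 9 genes, 0.16 over the 8 other than NLRC5 and 0.01 over all genes tested. Before adjustment, 4 members were higher and 1 lower at p under 0.05, beside 12.8% and 13.3% of all genes tested. Groups did not overlap for 56.6% of all genes tested. The AICAR arrays both lay above both vehicle arrays for 7 of the 9 genes, a pattern seen in 28.5% of all genes tested, and both below for 1 (28% of all genes tested).

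**Figure D1:**
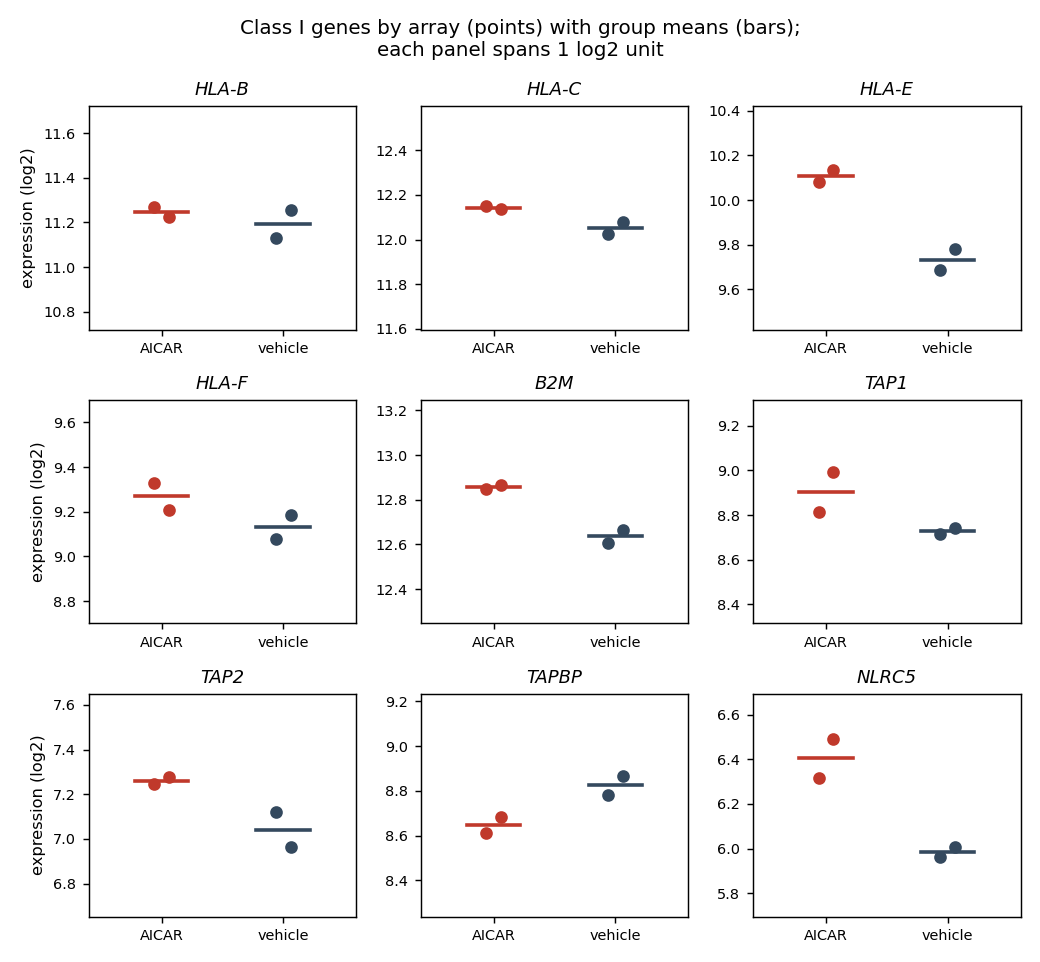
Expression (log2, vertical axis) of each class I gene in the AICAR arrays (left, red) and the vehicle arrays (right, blue), with points for arrays and bars for the means of 2 arrays; every panel spans the same range of 1 log2 unit. HLA-E and NLRC5 show the widest gaps between groups, HLA-B arrays overlap, and TAPBP is the gene with lower AICAR arrays.

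Among the heavy chains, HLA-E, which presents leader peptides of other class I chains to the NK receptor CD94-NKG2A, was at 10.08 and 10.13 (log2) in the AICAR arrays, against 9.69 and 9.78 in the vehicle arrays. The arrays of the 2 groups did not overlap. Its mean was 10.11 ± 0.04 with AICAR and 9.73 ± 0.07 with vehicle (SD, n = 2 each), a difference of 0.37 (SE 0.0722, 95% confidence interval 0.20 to 0.55, limma adjusted p = 0.0281). All 3 of its probe sets were higher in both AICAR arrays, and the only probe set with a plain _at ending, 200904_at, was at 7.81 and 7.81 with AICAR, against 7.56 and 7.39 with vehicle. That probe set differed by 0.34, and 217456_x_at by 0.35. HLA-E also did not pass with plain _at probe sets alone (adjusted p = 0.0627). It did not pass with any 1 array left out, with adjusted p = 0.184 and 0.107 without vehicle replicates 1 and 2 and 0.0522 and 0.0798 without AICAR replicates 1 and 2, while the difference stayed between 0.33 and 0.42.

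HLA-B, a classical heavy chain that presents peptides to CD8 T cells, was at 11.27 and 11.22 in the AICAR arrays, against 11.13 and 11.26 in the vehicle arrays. The groups overlapped, and the difference of 0.05 had a 95% confidence interval of -0.13 to 0.23 (limma adjusted p = 0.708). Its 3 probe sets differed by -0.01 to 0.05, and without vehicle replicate 1 the gene's difference was -0.011. HLA-C, the classical heavy chain that also serves as the main ligand of killer immunoglobulin-like receptors, was at 12.15 and 12.14 with AICAR, against 12.02 and 12.08 with vehicle. The AICAR arrays were the higher ones, but the difference of 0.09 (interval -0.07 to 0.25, adjusted p = 0.439) was within the error. Its 4 probe sets ran from 0.03 to 0.09. HLA-F, a non-classical heavy chain recognised by NK cell receptors, was at 9.33 and 9.21 with AICAR, against 9.08 and 9.19 with vehicle. Its lower AICAR array and higher vehicle array almost met, and the difference of 0.14 did not pass (interval -0.06 to 0.33, adjusted p = 0.336). Its other _x_at probe set differed by 0.13, and the dimmer 221978_at, at 5.36 and 5.15 with AICAR and 5.45 and 5.33 with vehicle, differed by -0.13.

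Class I heavy chain genes are close in sequence, and in Affymetrix naming an _x_at probe set holds probes that can also match other sequences, while an _s_at probe set matches several transcripts in common. All 7 probe sets of HLA-B and HLA-C are of the _x_at kind, so the values of these 2 genes cannot be assigned to either alone. Of the 25 member probe sets 11 end in _x_at, 5 in _s_at and 9 in a plain _at. Their differences were positive for 10 of 11 _x_at, 5 of 5 _s_at and 5 of 9 plain _at probe sets. Fitted as probe sets, 24 of 25 were above the bound for dim probe sets and 0 passed an adjusted p under 0.05 (limma), where 3.84% of 38229 probe sets passed, 1.43% as higher and 2.42% as lower. Before adjustment 7 were higher and 0 lower at p under 0.05, beside 8.44% and 12.2% of all probe sets tested. With a variance trend and robust moderation 5 were called higher and 0 lower, where 4.19% and 7.36% of all probe sets were, and the 5 were 2 of HLA-E, 2 of B2M and that of NLRC5. The lowest adjusted p in the probe set fit was 0.0635 for NLRC5, followed by 0.0646 for 200905_x_at of HLA-E. For 15 of the 24 both AICAR arrays lay above both vehicle arrays (24.5% of all probe sets tested) and for 1 both lay below (27%), where groups did not overlap for 51.6% of all probe sets tested. The median over the 24 was 0.13. These probe sets belong to 9 genes, and those of 1 gene are not independent, so their counts are not counts of genes.

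**Figure D2:**
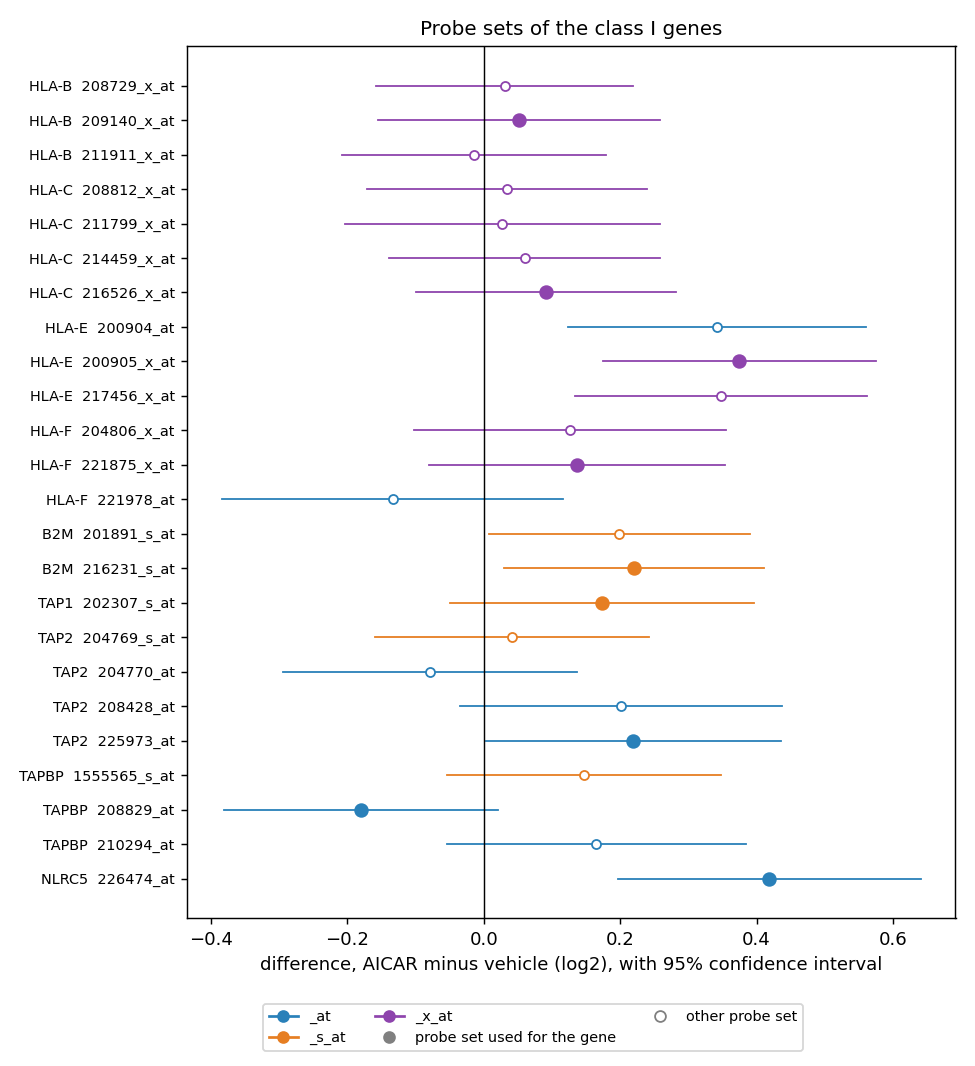
Difference between AICAR and vehicle (log2, horizontal axis) with its 95% confidence interval from limma for the 24 tested probe sets of the class I genes, coloured by the ending of the probe set name; filled points are the probe sets used for the gene. The 3 HLA-E probe sets lie at 0.34 to 0.37, those of HLA-B and HLA-C at -0.01 to 0.09, and those of TAP2 and TAPBP fall on both sides of 0.

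The light chain gene B2M was at 12.85 and 12.87 (log2) in the AICAR arrays, against 12.61 and 12.67 in the vehicle arrays. The groups did not overlap and the AICAR arrays were within 0.02 of each other, with a mean of 12.86 ± 0.01, against 12.64 ± 0.04 with vehicle (SD, n = 2 each). The difference of 0.22 (SE 0.0677, interval 0.06 to 0.38) missed the threshold at a limma adjusted p of 0.0971. Its second bright probe set, 201891_s_at, differed by 0.20. The third, 232311_at, lay far below the bound for dim probe sets, at 3.88 and 3.72 with AICAR and 4.06 and 4.07 with vehicle, and its inclusion lowered the mean difference of the gene to 0.05 (adjusted p = 0.649). With a variance trend and robust moderation B2M was called higher (adjusted p = 0.00352).

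TAP1, the transporter subunit whose gene lies beside PSMB9, was at 8.81 and 8.99 with AICAR, against 8.71 and 8.74 with vehicle, on its only probe set. Both AICAR arrays were higher, but they lay further apart than the vehicle arrays, and the difference of 0.17 did not pass (SE 0.0826, interval -0.03 to 0.37, limma adjusted p = 0.244). TAP2, the other transporter subunit, was at 7.24 and 7.28 with AICAR, against 7.12 and 6.96 with vehicle. Its difference of 0.22 did not pass (interval 0.03 to 0.41, adjusted p = 0.145), and its 4 probe sets ran from -0.08 to 0.22. TAPBP, the tapasin gene, was at 8.61 and 8.68 with AICAR, against 8.78 and 8.87 with vehicle. It is the single member with lower AICAR arrays, with a difference of -0.18 (interval -0.35 to -0.0050, adjusted p = 0.182). Its 2 dimmer probe sets went the other way, 1555565_s_at by 0.15 and 210294_at by 0.17, and the mean of its 3 probe sets differed by 0.04.

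NLRC5 was measured by 1 probe set, 226474_at, which lay near the bound for dim genes of 6.115 (log2). It was at 6.32 and 6.49 in the AICAR arrays, above that bound, and at 5.96 and 6.01 in the vehicle arrays, below it. The means were 6.40 ± 0.12 with AICAR and 5.98 ± 0.03 with vehicle (SD, n = 2 each), a difference of 0.42 (SE 0.0822, 95% confidence interval 0.22 to 0.62, limma adjusted p = 0.0297). A filter at the median left it out. With 1 array left out it passed without AICAR replicate 1 (adjusted p = 0.0296) and not without AICAR replicate 2 (0.0775), vehicle replicate 1 (0.170) or vehicle replicate 2 (0.124), while the difference ran from 0.33 to 0.50. Of all other genes tested, the 5 nearest to NLRC5 in their pattern over the 4 arrays, by Euclidean distance of values less the gene's mean, were PCMTD1 (distance 0.0144), SLC19A2 (0.0148), MPLKIP (0.0196), MAP1B (0.0264) and PCYOX1L (0.0288), which differed by 0.40 to 0.44. Over 4 arrays such nearness mostly restates the size of the difference.

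**Figure D3:**
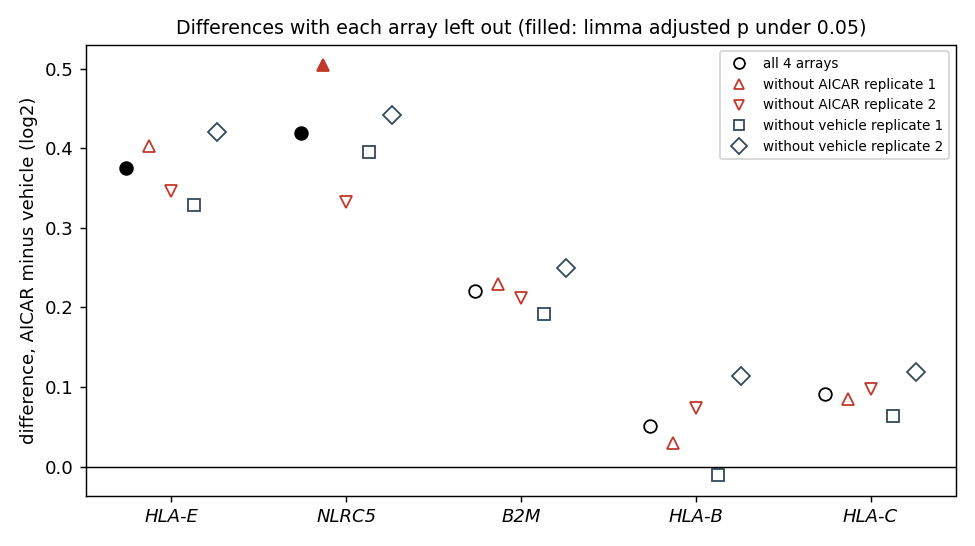
Difference between AICAR and vehicle (log2, vertical axis) of 5 class I genes with all 4 arrays (black) and with each AICAR array (red triangles) or vehicle array (blue squares and diamonds) left out; filled symbols passed a limma adjusted p under 0.05. HLA-E ran from 0.33 to 0.42 and NLRC5 from 0.33 to 0.50, HLA-B from -0.011 to 0.11.

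NLRC5 reaches promoters through the RFX complex, and of the 28 listed regulators of class I genes 23 were tested, of which 2 rose and 1 fell by limma. Over all genes tested 4.63% were called higher and 5.19% lower. Before adjustment 4 regulators were higher and 1 lower at p under 0.05, beside 12.8% and 13.3% of all genes tested. These are small counts to set beside those shares. The regulators that rose were RFX5 and RFXAP, subunits of that complex. RFXAP was at 7.73 and 7.93 (log2) with AICAR, against 7.26 and 7.19 with vehicle, a difference of 0.61 (SE 0.0887, adjusted p = 0.0149). A second probe set differed by -0.04, and the mean of both by 0.28 (adjusted p = 0.0499). RFX5 was at 9.29 and 9.38 with AICAR, against 8.97 and 8.81 with vehicle, a difference of 0.45 (SE 0.0845, adjusted p = 0.0272), beside 0.41 on a second probe set. The remaining subunit RFXANK, chosen here after its value was seen, differed by -0.01 (adjusted p = 0.935). EZH2, the histone methyltransferase of Polycomb repressive complex 2, was at 9.74 and 9.82 with AICAR, against 10.37 and 10.46 with vehicle, and fell by 0.64 (SE 0.0738, adjusted p = 0.00903). The list median was -0.01, beside 0.01 over all genes tested. RFX5 did not pass without the filter (adjusted p = 0.0527) or without AICAR replicate 2 (0.0801). Without vehicle replicates 1 and 2 none of the 3 passed, with adjusted p = 0.0809 and 0.0900 for RFXAP, 0.0856 and 0.145 for RFX5 and 0.0556 and 0.0703 for EZH2.

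Of the 16 listed genes of peptide supply and loading 14 were tested, and 2 rose and 1 fell by limma. Over all genes tested 4.63% were called higher and 5.19% lower. Before adjustment 4 of the list were higher and 1 lower at p under 0.05, beside 12.8% and 13.3% of all genes tested. These too are small counts. Among the 4 was ERAP2, with an AICAR mean of 6.36 above the bound for dim genes and a vehicle mean of 5.97 below it. The 2 that rose, PSMB9 and PSMB10, encode catalytic subunits of the immunoproteasome. The remaining such subunit PSMB8, named after its value was seen, differed by 0.24 and did not pass (limma adjusted p = 0.115). PSMB9, the neighbour of TAP1, was at 6.95 and 6.81 with AICAR, against 6.38 and 5.90 with vehicle, a difference of 0.74 (1.67-fold, SE 0.154, adjusted p = 0.0351). Its vehicle arrays lay far apart, and the difference was 0.98 without vehicle replicate 1 (adjusted p = 0.0389) and 0.50 without vehicle replicate 2 (0.0967). PSMB10 was at 9.20 and 9.14 with AICAR, against 8.69 and 8.78 with vehicle, a difference of 0.43 (SE 0.0729, adjusted p = 0.0208). PSME3, the nuclear proteasome activator, was at 8.91 and 8.85 with AICAR, against 9.20 and 9.19 with vehicle, and fell by 0.31 (SE 0.0684, adjusted p = 0.0398), with 4 of 4 probe sets negative. The list median was 0.08. PSMB9 and PSME3 did not pass without the filter (adjusted p = 0.0594 and 0.0823) or without AICAR replicate 1 (0.101 and 0.0594) or AICAR replicate 2 (0.0729 and 0.102). PSME3 also did not pass after quantile normalization (-0.27, adjusted p = 0.0634). PSMB10 did not pass without vehicle replicate 1 (0.140), vehicle replicate 2 (0.0876) or AICAR replicate 1 (0.0526), nor did PSME3 without vehicle replicates 1 and 2 (0.209 and 0.172).

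**Figure D4:**
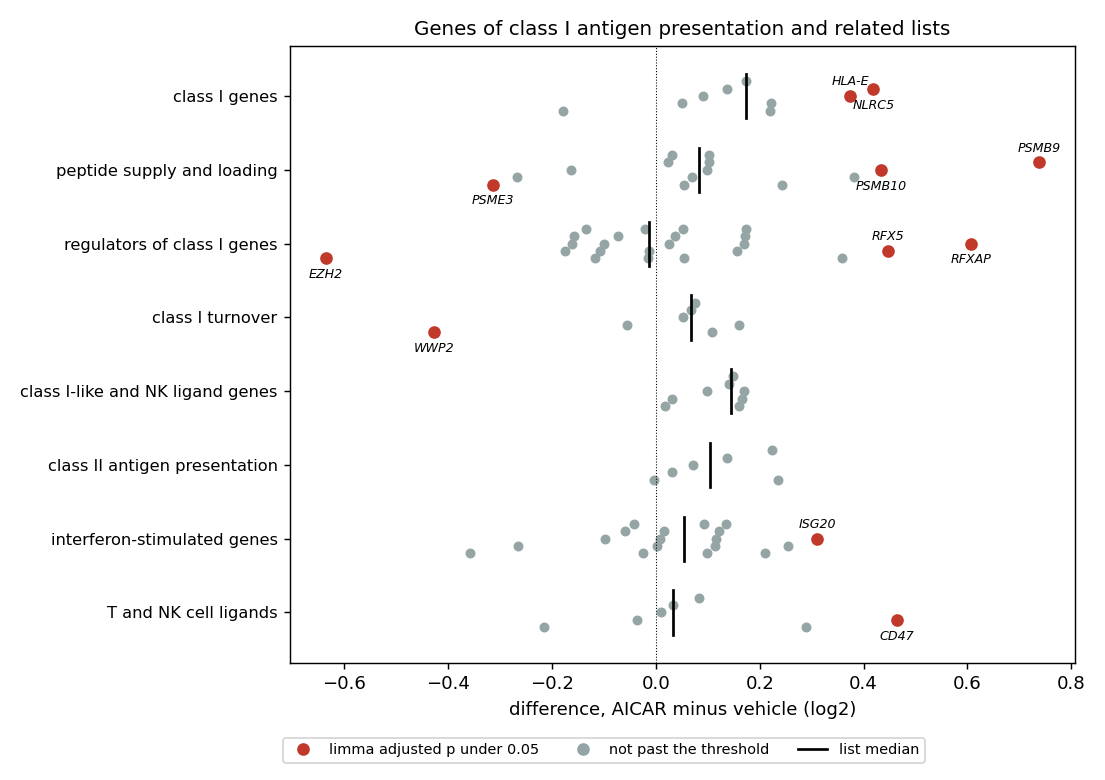
Difference between AICAR and vehicle (log2, horizontal axis) of every tested gene of the class I group and of 7 related lists; red points with names passed a limma adjusted p under 0.05, grey points did not, and black bars are list medians. Named genes on the right are HLA-E, NLRC5, PSMB9, PSMB10, RFX5, RFXAP, ISG20 and CD47, and on the left PSME3, EZH2 and WWP2.

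The neighbouring lists held 0 or 1 calls each, where 9.82% of all genes tested were called. Before adjustment, 12.8% of all genes tested were higher and 13.3% lower. With so few genes in each list, the counts are not a result about the lists. Of 30 interferon-stimulated genes 18 were tested, and 1 rose and 0 fell, with 2 higher and 2 lower before adjustment (limma, p under 0.05). It was ISG20, an RNA exonuclease, at 8.62 and 8.61 with AICAR, against 8.34 and 8.27 with vehicle (difference 0.31, adjusted p = 0.0415), and it did not pass with any 1 array left out (adjusted p = 0.0892 to 0.210), without the filter (0.0846), with the mean of its probe sets (0.0639) or with plain _at probe sets (0.0587). The list median was 0.05. In class I turnover, where 7 of 8 were tested, WWP2, a ubiquitin ligase reported to mark class I heavy chains for degradation, fell by 0.43 (adjusted p = 0.0287). Its 4 probe sets were all negative, but their mean of -0.19 did not pass (0.123). WWP2 also did not pass without the filter (0.0569), or without vehicle replicate 1 (0.163), vehicle replicate 2 (0.124) or AICAR replicate 1 (0.0657).

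In class II antigen presentation, 6 of 13 were tested and 0 passed (limma). At an unadjusted p under 0.05, 1 was higher, beside 12.8% of all genes tested. That gene was HLA-DOB, with an AICAR mean of 6.29 above the bound for dim genes and a vehicle mean of 6.07 below it. HLA-DQB1 differed by 0.24 (adjusted p = 0.243), with 7 probe sets from 0.07 to 0.92, and their mean of 0.28 passed (adjusted p = 0.0404). HLA-DOB, a modulator of class II peptide exchange, differed by 0.22 (adjusted p = 0.175). Of 13 class I-like and NK ligand genes 8 were tested and 0 passed, with 0 at an unadjusted p under 0.05. HFE, which acts in iron sensing, differed by 0.17 (adjusted p = 0.307) and the IgG receptor gene FCGRT by 0.17 (0.375). The list medians were 0.10 and 0.14. On the probe set used for each gene all 8 tested class I-like genes were positive, as were 52.4% of all genes tested, but of the 15 probe sets of HFE 3 were negative, with a range of -0.15 to 0.38. Of 10 ligands of T and NK cells 7 were tested and CD47, the signal that restrains phagocytosis, rose by 0.46 (adjusted p = 0.0139), at 11.61 in both AICAR arrays and 11.15 and 11.14 in the vehicle arrays. Its 7 probe sets ran from -0.16 to 0.46, their mean of 0.08 did not pass (adjusted p = 0.559), and it did not pass without vehicle replicate 1 (0.0957) or vehicle replicate 2 (0.0898).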

How the data were processed

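The deposited values are log2 expression per probe set, normalized by the authors, and were used as deposited. Affymetrix Expression Console made them, per the submitters' processing notes; the sources used here name no version, summarization or background correction. Symbols came from the platform annotation, updated through Entrez IDs for 41043 of 41097 single-symbol probe sets. Each gene was represented by its probe set with the highest mean. Dim genes, with a mean under the 30th percentile of all (6.115), were set aside, which left 13842; for probe sets that bound was 5.213 and left 38229. AICAR was set against vehicle with limma 3.58.1 in R 4.3.3 (lmFit, eBayes, two-sided, Benjamini-Hochberg adjustment), and treat tested a minimum of 1.5-fold. An exact permutation test of 2 against 2 arrays cannot go below 0.333, so none was used. The array number limits precision. AICAR against vehicle was simulated 20 times over 13842 genes, with 200 of them changed. The fit recovered 51% of changes of 0.5 and 97.6% of changes of 1 (log2), with 4.68% of calls false. Errors were drawn from the fitted variance model, and fewer genes were changed than the 1359 called in the data. The rates of the real fit may therefore differ. Members and lists were chosen with earlier results of these data known. Named genes were all members, up to 4 called genes with the largest difference in each list or the 2 largest where none was called, and the 5 nearest to the member with the largest difference. Alternatives were other filters, normalizations, variance models, probe set rules, thresholds, a replicate block and each array left out. Deviations of same-numbered replicates correlated at -0.08, so no strong effect shared by number was seen. With 2 arrays a group this cannot show whether same-numbered arrays were paired, and the main fit did not pair them. Promoter windows are RefSeq's.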

Additional observations from a re-analysis of the deposited data

How the results depend on the processing

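With 2 arrays a group and effects near 1.3-fold, calls on class I genes depended on the setting. The direction of HLA-E and NLRC5 did not change in any setting in which each was tested, but few settings could have changed it. Filters, thresholds, variance models and the block leave a difference as it is. Where groups do not overlap, leaving 1 array out cannot change the sign, and NLRC5 has only 1 probe set. The 2 higher class I calls became 0 without the filter and with a bound of 1.5-fold, and 1 with a filter at the 50th percentile or with plain _at probe sets; with 1 array left out they were 0 to 1. The class I median was 0.22 after quantile normalization, 0.053 with the mean of all probe sets and 0.16 to 0.23 with 1 array left out. It was 0.14 with the 50th percentile filter, which left out TAP2 and NLRC5. It was 0.28 with plain _at probe sets, where only HLA-E, TAP2, TAPBP and NLRC5 were tested (0.34, 0.22, -0.18 and 0.42). The medians of 0.14 and 0.28 are thus over fewer genes and cannot be set beside those over all members. Class I probe sets called higher were 1 with the 50th percentile filter, 5 with a trend and robust variances and 4 at an adjusted p under 0.1. Over all genes (641 higher and 718 lower), the counts were 368 and 355 without the filter, 1107 and 1359 with a trend and robust variances, 1093 and 1173 at an adjusted p under 0.1, 2 and 0 with the bound, and 69 to 553 and 30 to 432 with 1 array left out. After quantile normalization 854 were higher and 624 lower. Over all probe sets (545 and 924) they were 327 and 485, 1603 and 2812, 1230 and 2090, and 1 and 1 under the same settings, 886 and 1506 with the 50th percentile filter, and 0 to 1 and 0 to 0 with 1 array left out. With the replicate number as a block, which pairs arrays only by a number, 2 class I genes were called and 0 of their probe sets, with 577 and 586 over all genes and 322 and 509 over all probe sets. Some uncalled differences changed sign. TAPBP, at -0.18 on the probe set used for the gene, was at 0.044 with the mean of its probe sets, which differ in sign. Near 0, 211911_x_at of HLA-B was at 0.035 after quantile normalization, against -0.014 as deposited. With 1 array left out, HLA-B (209140_x_at) ran from -0.011 to 0.11, its 211911_x_at from -0.045 to 0.017, HLA-C's 208812_x_at from -0.027 to 0.096 and 211799_x_at from -0.063 to 0.12, and TAP2's 204769_s_at from -0.0082 to 0.091. The causes were not tested, except that fewer arrays or more features tested follow from the settings themselves. B2M was called with a trend and robust variances. Where 1 array was left out, the lone array of its group was assumed to vary like those of the other group.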
